A study of Vitis vinifera with 60 samples.

Results

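Garganega, a white-berried grapevine cultivar (Vitis vinifera), was set against 4 other white-berried cultivars, Glera, Moscato bianco, Passerina and Vermentino, at the same stage of berry development. It accounts for 12 of the 60 libraries of the study, and for 4 of the 20 columns of the authors' table of mean FPKM. FPKM are fragment numbers per length of transcript, scaled to the mapped total of a library. The members were chosen by name alone, as the 4 columns labelled Garganega, and each was compared with the mean, the highest and the lowest of the other 4 columns of its stage.

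The tissue was berry pericarp, taken as whole berries with the seeds removed, and about 400 mg went into an extraction. All vines stood in 1 experimental vineyard and were sampled in the 2011 season, and the labels name no treatment. Each of the 5 cultivars was sampled at 4 stages: Pea, when berries had the size of a pea, Touch, when berries in a cluster began to touch, Soft, when berries had softened, and Harv, at harvest. There were 3 libraries for each cultivar and stage, made with a kit that does not mark strand. A column holds the authors' mean over a cultivar and stage, so the spread between libraries and the depth are unknown. Nothing in the labels says whether the libraries came from separate plants, and each cultivar grew at 1 site in 1 season.

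Grape berries grow as hard green fruit, pause, and then soften and ripen. At the onset of ripening, called veraison, they begin to take up sugar, lose acidity and turn off much of the machinery of green tissue, while a smaller set of ripening genes is turned on. Cultivars differ in when they pass through these steps. Garganega is the main grape of Soave and is known as a late-ripening cultivar, Glera is the grape of Prosecco, and Moscato bianco is an aromatic muscat. A cultivar that is later than another can differ from it at a named stage in any gene that is changing at that time, beside genes in which it differs throughout.

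The identifiers in the table begin with VIT, and 0 of 29287 matched the 29591 annotated genes of the reference table, so gene names, roles and sequences are not given. The lists of pathway genes and of cell type markers could not be applied for the same reason, and the labelled tissue could not be checked against markers. Of the 29287 genes, 20833 reached 1 FPKM in at least 1 column and were kept. Differences below are on the scale of log2(FPKM + 1), which understates the fold of low genes. Garganega and the other cultivars were on a similar scale, with a median difference over all genes and stages of 0.02. Genes with at least 1 FPKM numbered 18295 in Garganega at Pea, against 17671 to 18030 in the others, and 17626 at Touch, against 16938 to 17674. They numbered 16082 in Garganega at Soft, against 16006 to 16133 in the others, and 15959 at Harv, against 15636 to 15930. In such bulk samples, fewer cells of a type and less RNA per cell cannot be told apart.

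Garganega lay behind the other cultivars along development at Touch and at Soft. Each column was projected on the line that joins the averaged profiles at Pea (0%) and at Harv (100%) of the cultivar's own other 4, over 20833 genes. Garganega stood at -0.70% at Pea, 14.5% at Touch, 66.3% at Soft and 93.9% at Harv. The other cultivars, each on its own line, averaged 2.30% ± 3.03, 25.4% ± 7.21, 76.2% ± 3.56 and 99.2% ± 4.24 at the same stages (SD, n = 4 cultivars). The difference of Garganega from their mean was -10.9 percentage points at Touch and -9.97 at Soft, and smaller at Pea (-3.0) and at Harv (-5.30).

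The lag was not of the same standing at each stage. At Touch the nearest cultivar was Passerina, at 18.2%, a difference of -3.77 points, and the others reached up to 34.8% in Moscato bianco. The spread among the others at Touch was wide, so that Moscato bianco stood out on the leading side as Garganega did on the trailing side. At Soft the nearest was Vermentino at 72.2%, a difference of -5.97 points, while the other 4 lay within 72.2% to 79.5%. At Pea the difference from Passerina, the nearest, was -0.20 points, and at Harv Garganega was 0.997 points above Passerina, which was the lowest at 92.9%. An exact two-sided permutation test over the 5 cultivars gave p = 0.6 at Pea, 0.4 at Touch, 0.2 at Soft and 0.4 at Harv. With 1 cultivar against 4 the smallest p such a test can give is 0.2, so no stage could pass 0.05.

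**Figure D1:**
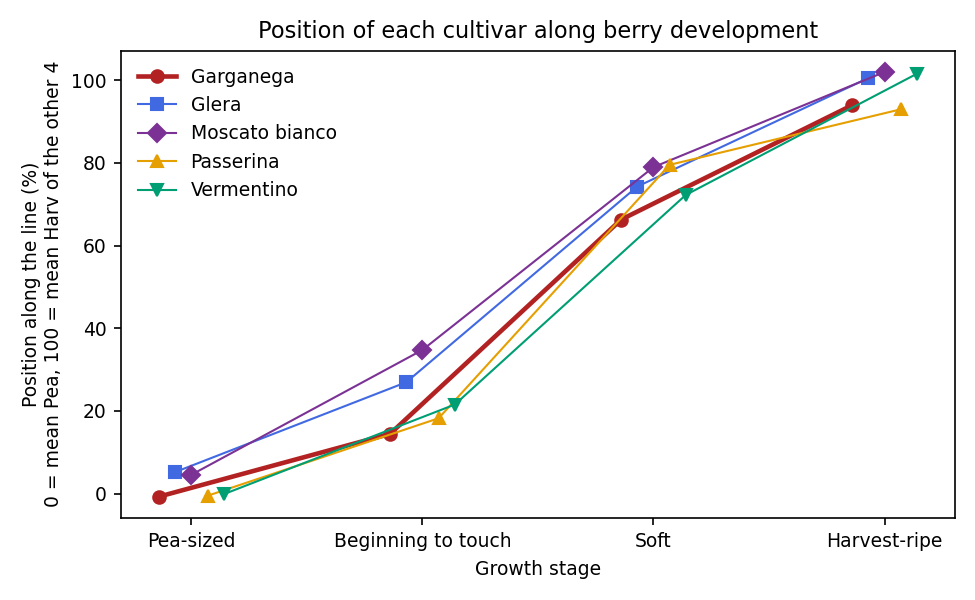
Position of each cultivar (vertical axis, in percent of the way between the averaged profiles of its own other 4 cultivars at Pea and at Harv) at the 4 stages (horizontal axis), 1 point per authors' mean column. Garganega is lowest of the 5 at Touch (14.5%) and Soft (66.3%), and second lowest at Harv (93.9%).

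Most of the lag was already present at Touch. From Pea to Touch, Garganega advanced 15.2 points, the shortest step of the 5 cultivars, against 18.7 in Passerina, 21.7 in Vermentino, 21.7 in Glera and 30.2 in Moscato bianco. From Touch to Soft it advanced 51.8 points, against 44.2 in Moscato bianco, 47.3 in Glera, 50.7 in Vermentino and 61.3 in Passerina. This second step was within the range of the others, so that Garganega crossed the onset of ripening by as long a step as they did, from a lower start. From Soft to Harv its step was 27.7 points, against 13.4 in Passerina and 23.0 to 29.3 in Glera, Moscato bianco and Vermentino.

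The position also depends on the line chosen. On a line drawn only from Pea to Touch of the others, Garganega at Touch lay at 72.9%, against 87.3% to 109% in the other cultivars. On a line from Touch to Soft, Garganega at Soft lay at 87.7%, against 90.3% to 107% in the others. It was the lowest of the 5 on both lines.

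The trailing position was seen in rising and in falling genes, with 1 exception. Over the 3619 genes that fell at least 2-fold from Pea to Harv in all of the other 4, Garganega stood at 16.4% at Touch, against 19.4% to 36.5% in the others, and at 65.8% at Soft, against 72.9% to 79.9%. It was the lowest at both stages. Over the 823 genes that rose at least 2-fold in all of the other 4, it stood at 71.8% at Soft, against 72.0% to 83.2%, a lowest place shared almost evenly with Vermentino. For rising genes at Touch, Garganega stood at 12.7% and was not the lowest, since Vermentino stood at 12.1% and the others at 17.6% to 29.9%. Each cultivar was measured over genes chosen without it, and the number of genes therefore differed slightly between cultivars.

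The same question was put gene by gene. Genes were taken that changed at least 2-fold in the same direction between 2 adjacent stages in all 4 other cultivars, a choice made without Garganega. The cultivar was counted as behind in a gene when its value at the later stage had not reached the slowest of the other 4, and ahead when it had passed the fastest. From Pea to Touch, 202 genes rose by this rule, and Garganega was behind in 102 of them (50.5%) and ahead in 20 (9.90%). Among all genes at Touch, Garganega was below the lowest other cultivar in 23.1% and above the highest in 23.6%. With the rule applied to each other cultivar in its place, the share behind was 11.6% in Glera, 12.6% in Passerina, 18.5% in Moscato bianco and 27.4% in Vermentino.

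Falling genes at Touch showed the same imbalance. Of 569 genes that fell from Pea to Touch in all of the others, Garganega was behind in 296 (52.0%), so still above the highest of the others, and ahead in 18 (3.16%). The share behind was 5.95% in Moscato bianco, 9.57% in Glera, 18.3% in Vermentino and 25.5% in Passerina. Moscato bianco was at the other end, ahead in 276 of 504 falling genes (54.8%). Garganega's own change was smaller than that of the others in these genes, with a median of 1.35 against 1.78 on the log2 scale for rising genes and 1.62 against 2.00 for falling genes. It had the smallest change of the 5 cultivars in 106 of the 202 rising genes (52.5%) and in 244 of the 569 falling genes (42.9%). The others had to change at least 2-fold in these genes and Garganega did not, which by itself favours a smaller change in Garganega. A small change was also not particular to Garganega. Over its own sets of genes, Glera had the smallest change in 46.0% of rising and 50.8% of falling genes while being behind in few of them. Its median change was 1.46 against 1.74 for rising and 1.54 against 1.93 for falling genes. In Passerina and Vermentino the median change was larger than that of their others in both directions.

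Garganega was also outside the others at Pea in a part of these genes. Of the 296 falling genes in which it was behind at Touch, it was above the highest other cultivar at Pea in 142 (48.0%), against 31.3% of all 569 falling genes, and within their range in another 142. Of the 102 rising genes, it was below the lowest at Pea in 29 (28.4%), against 16.8% of all 202 rising genes, and within the range in 67. At later stages, Garganega was above the others in 122 of the 296 falling genes at Soft (41.2%, against 39.9% of all 569) and in 100 at Harv (33.8%, against 30.9%), shares near those of all falling genes. Of the 102 rising genes it was below the others in 49 at Soft (48.0%, against 30.2% of all 202) and in 23 at Harv (22.5%, against 15.8%). The genes were chosen for their place at Touch, so a share lower than at Touch follows in part from that choice. Shares above those of all falling or all rising genes can follow from it too.

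**Figure D2:**
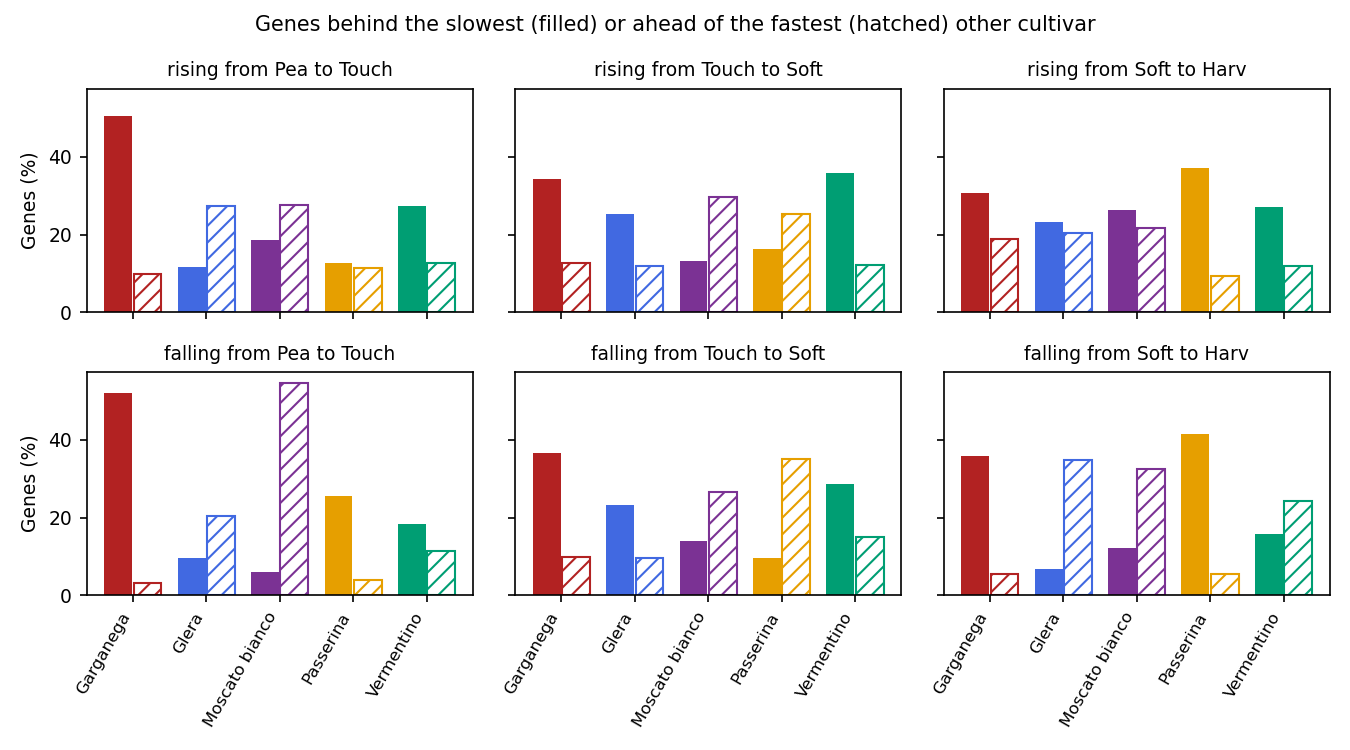
Percent of genes (vertical axis) in which each cultivar (horizontal axis) was behind the slowest (filled bars) or ahead of the fastest (hatched bars) of its own other 4, for genes that rose or fell at least 2-fold in all of those 4 between adjacent stages. Garganega has the tallest filled bar for both directions at Touch (50.5% and 52.0%) and for falling genes at Soft (36.5%).

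At Soft, Garganega was behind less often than at Touch, and for rising genes it was not alone. From Touch to Soft, 386 genes rose in all of the others, and Garganega was behind in 132 (34.2%) and ahead in 49 (12.7%). Vermentino was behind in 35.8% of its 394 genes and the remaining cultivars in 13.1% to 25.2%. Among all genes at Soft, Garganega was below the lowest other cultivar in 17.8% and above the highest in 25.9%.

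Falling genes were the larger group at this step, and Garganega had the largest share behind in them. Of 1664 genes that fell from Touch to Soft in all of the others, it was behind in 608 (36.5%) and ahead in 163 (9.80%). The share behind was 9.66% in Passerina, 13.9% in Moscato bianco, 28.6% in Vermentino and 23.1% in Glera. The change of Garganega itself was as large as theirs, with medians of 2.35 against 2.31 on the log2 scale for rising genes and 1.89 against 1.87 for falling genes. Of the 608 falling genes, it was above the others at Touch in 268 (44.1%, against 33.9% of all 1664) and at Harv in 282 (46.4%, against 29.7%). Of the 132 rising genes, it was below the others at Touch in 58 (43.9%, against 30.1% of all 386) and at Harv in 40 (30.3%, against 16.8%). These genes were chosen for their place at Soft and are part of the sets they are compared with. Higher shares at other stages can follow in part from that choice.

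From Soft to Harv the place behind was shared with Passerina. Garganega was behind in 100 of 279 falling genes (35.8%) and in 31 of 101 rising genes (30.7%), against 41.7% and 37.0% in Passerina. It was ahead in 15 of the falling genes (5.38%) and in 19 of the rising genes (18.8%). Among all genes at Harv, Garganega was above the highest other cultivar in 18.6% and below the lowest in 15.6%. Glera, Moscato bianco and Vermentino were behind in 6.82% to 15.9% of falling genes and in 23.3% to 27.2% of rising genes.

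Progress places the value of a gene in Garganega against the change of the others. It is 0% where Garganega at the later stage equals the mean of the others at the earlier stage and 100% where it equals their mean at the later stage. At Touch, Garganega had a median progress of 75.1% in rising genes, with quartiles at 56.2% and 99.3%. In falling genes the median was 78.3%, with quartiles at 54.2% and 94.9%. The medians of the others at Touch ran from 92.2% to 109.8% in rising genes and from 91.4% to 121% in falling genes, so Garganega was lowest in both. At Soft, the median progress of Garganega was 89.9% in rising and 90.4% in falling genes, against 88.3% to 109.9% and 96.0% to 109.8% in the others. The ranges of genes overlapped widely between cultivars at both stages. A gene that was high or low in a cultivar throughout also enters these values, so progress does not measure lateness alone.

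**Figure D3:**
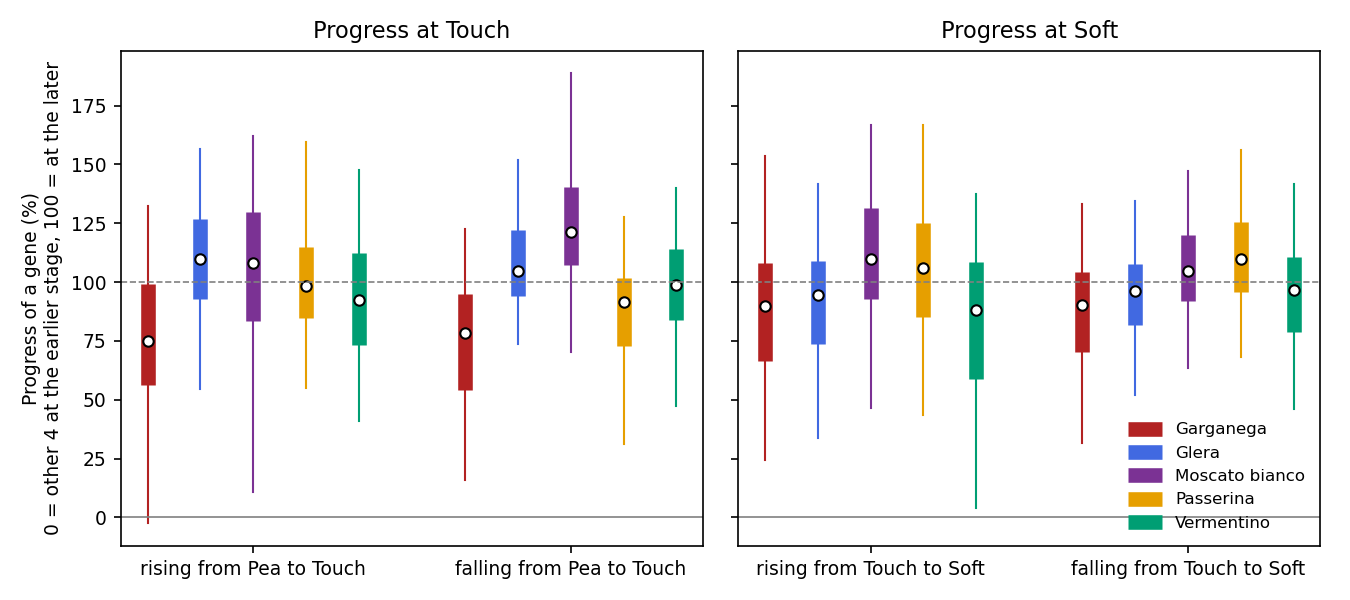
Progress of genes (vertical axis, in percent of the mean change of the other 4 cultivars) at Touch and at Soft, for genes rising or falling in all of the other 4. White points are medians over genes, thick bars run between the quartiles and thin lines from percentile 5 to percentile 95. Garganega has the lowest medians at Touch (75.1% and 78.3%) and the lowest for falling genes at Soft (90.4%).

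Single genes gave distances much wider than these medians. VIT_01s0011g05110 stood at 1.32 FPKM in Garganega at Touch, against 542 FPKM in Passerina, 606 FPKM in Vermentino, 2336 FPKM in Moscato bianco and 1272 FPKM in Glera. In Garganega it reached 94.5 FPKM at Soft and 179 FPKM at Harv, and so stayed below Passerina (413 and 565 FPKM), Vermentino (7086 and 12931 FPKM) and Glera (11609 and 13881 FPKM). At Soft and Harv it was listed at 0 in Moscato bianco, so Garganega was not the lowest there. VIT_13s0019g00420 showed no rise in Garganega, with 0.483, 0.512, 0.314 and 0.329 FPKM at Pea, Touch, Soft and Harv. In the others it stood at 2.19 to 5.28 FPKM at Pea, 7.94 to 32.2 FPKM at Touch, 11.9 to 26.7 FPKM at Soft and, at Harv, 9.26 to 23.3 FPKM. Garganega was below the lowest of them at all 4 stages, so this gene was low throughout rather than late.

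Among falling genes, VIT_11s0037g00290 stood at 182, 116, 6.42 and 0.0889 FPKM in Garganega at the 4 stages, against 14.6 to 17.6, 1.06 to 4.56, 0.0221 to 0.365 and 0 to 0.0309 FPKM in the others. Garganega was above all of them at every stage, and its value at Touch exceeded theirs at Pea. VIT_13s0064g01660 stood at 167 FPKM in Garganega at Pea and 16 FPKM at Touch, against 10.6 to 53.0 FPKM and 0.113 to 1.82 FPKM in the others. By Soft it was down to 0.108 FPKM in Garganega, against at most 0.0293 FPKM in the others, so the gene was low in all 5 cultivars.

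A few genes ran the other way at Touch. VIT_11s0118g00390 rose to 259 FPKM in Garganega at Touch, with 77.7 FPKM at Pea, against 96.9 to 143 FPKM at Touch and 37.8 to 51.3 FPKM at Pea in the others. VIT_14s0060g01730 stood at 447 FPKM in Garganega at Pea and 1233 FPKM at Touch, against 158 to 382 FPKM and 414 to 768 FPKM in the others. In both genes Garganega was above all other cultivars at Pea as well. VIT_14s0030g02310 fell to 0.749 FPKM in Garganega at Touch, with 9.61 FPKM at Pea, against 3.07 to 21.2 FPKM at Touch and 17.3 to 64.3 FPKM at Pea in the others. It was then highest in Garganega at Harv, at 34.7 FPKM, against 4.96 to 15.3 FPKM.

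At Soft, the rising gene with the widest distance was VIT_19s0093g00190. It stood at 0.232, 4.56, 36.7 and 8.31 FPKM in Garganega at Pea, Touch, Soft and Harv. At Soft the others held 260.1 FPKM in Glera, 269 FPKM in Vermentino, 748 FPKM in Moscato bianco and 967 FPKM in Passerina, and at Harv they held 190.1 to 845 FPKM. At Pea, Garganega was close to Vermentino (0.226 FPKM) and Glera (0.482 FPKM), and the distance from them opened from Touch onwards. Moscato bianco (63.5 FPKM) and Passerina (32.0 FPKM) were far above Garganega at Pea already. VIT_13s0047g00200 stood at 2.76 FPKM in Garganega at Soft, against 20.5 to 68.6 FPKM in the others, and at 8.20 FPKM at Harv, against 17.3 to 46.3 FPKM. At Pea and Touch, Garganega was within the range of the others for this gene.

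Among falling genes at Soft, the widest distances were in a pair of genes with different levels before. VIT_11s0037g00570 stood at 50.9 FPKM in Garganega at Pea and 63.0 FPKM at Touch, within the 23.1 to 120.3 FPKM and 29.2 to 70.2 FPKM of the others. In Garganega it stood at 8.5 FPKM at Soft, against 0.231 to 0.641 FPKM in the others, and at Harv at 0.789 FPKM, against 0.0298 to 0.161 FPKM. VIT_05s0102g00600 stood at 190.4 FPKM in Garganega at Pea, 93.5 FPKM at Touch and 43.6 FPKM at Soft. The others held 104 to 362 FPKM at Pea, 24.3 to 38.8 FPKM at Touch and 1.76 to 7.09 FPKM at Soft, so Garganega was above them at Touch already. At Harv, 0.970 FPKM in Garganega was close to the highest of the others, 0.943 FPKM in Passerina.

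Garganega was ahead at Soft in VIT_05s0049g00550, which stood at 38.0, 29.9, 1086 and 1470.0 FPKM in Garganega at the 4 stages. The others held 1.97 to 5.82 FPKM at Pea, 0.912 to 43.1 FPKM at Touch, 79.0 to 313 FPKM at Soft and, at Harv, 8.84 to 229 FPKM. In the others the gene was lower at Harv than at Soft, whereas in Garganega it was higher at Harv, and only Passerina at Touch exceeded Garganega. The joined entry VIT_00s0324g00050,VIT_00s0324g00060 stood at 196 FPKM in Garganega at Soft, against 1.25 to 72.7 FPKM, and at 88.0 FPKM at Harv, against 2.10 to 72.0 FPKM. Among falling genes, VIT_18s0041g00370 stood at 3.22 FPKM in Garganega at Soft, against 13.0 to 19.3 FPKM, and was below the others at Pea and Touch too.

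**Figure D4:**
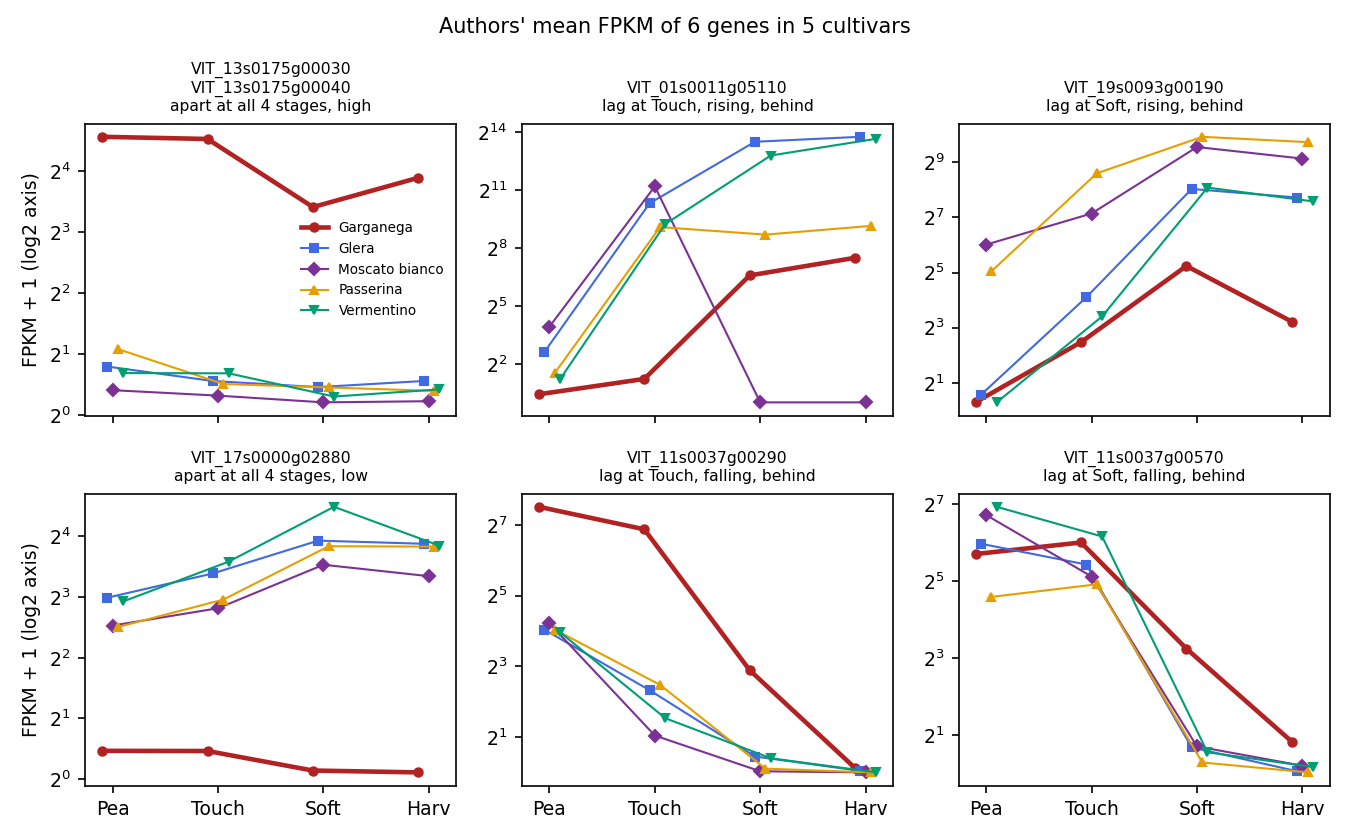
Authors' mean FPKM + 1 (vertical axes, log2 scale) of 6 genes at the 4 stages (horizontal axes) in the 5 cultivars, 1 point per column. The left pair is apart from the others at all 4 stages. The middle pair was counted as behind at Touch and the right pair as behind at Soft. At Soft, VIT_19s0093g00190 stood at 36.7 FPKM in Garganega and at 260.1 FPKM or more in the others. Being behind rests on that stage alone, and VIT_11s0037g00290 was above the others at all 4 stages.

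The transitions were also tested gene by gene with limma, with Garganega's change set against the 4 changes of the other cultivars. From Pea to Touch 9 genes were called at an adjusted p under 0.05 and a difference of at least 2-fold (0.0432% of genes tested), 3 with a higher and 6 with a lower change in Garganega. From Touch to Soft 7 were called (0.0336%), all 7 with a lower change in Garganega, and from Soft to Harv 18 (0.0864%), 9 each way. Each of these genes was listed at 0 in at least 1 of the 20 columns, and in 7, 5 and 12 of them all other cultivars were listed at 0 at both stages. Without genes listed at 0 anywhere, 0 genes were called by limma in each transition. As 1 change was set against 4, this does not show that no gene differed. Over all genes kept, at least 1 other cultivar tested in Garganega's place had as many calls or more in each transition. With any 1 other cultivar left out, 0 were called in the first 2 transitions and 4 to 10 in the last.

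Of the 4 stages, Touch was the one at which Garganega had the most genes outside the range of the others. At least 2-fold above the highest of the other 4 were 254 genes at Pea (1.22% of those tested), 343 at Touch (1.65%), 217 at Soft (1.04%) and 136 at Harv (0.653%). At least 2-fold below the lowest were 121 genes at Pea (0.581%), 131 at Touch (0.629%), 127 at Soft (0.61%) and 80 at Harv (0.384%). At Touch the other cultivars had 103 to 215 genes high and 43 to 269 low by the same rule, and at Pea 113 to 160 high and 122 to 156 low. Garganega was above the other cultivars in its number of high genes at Pea, Touch and Soft, where they had at most 160, 215 and 188. Its low genes at Touch were fewer than the 269 of Moscato bianco and the 181 of Vermentino. At Harv its 136 high genes were within their range of 136 to 191, and its 80 low genes were fewer than in any other cultivar (82 to 168). In either direction together, 375 genes were outside at Pea (1.8%), 474 at Touch (2.28%), 344 at Soft (1.65%) and 216 at Harv (1.04%). Left out of the others, Passerina moved these numbers most, to 595, 795, 628 and 587. Without Moscato bianco, the number at Harv was 328.

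**Figure D5:**
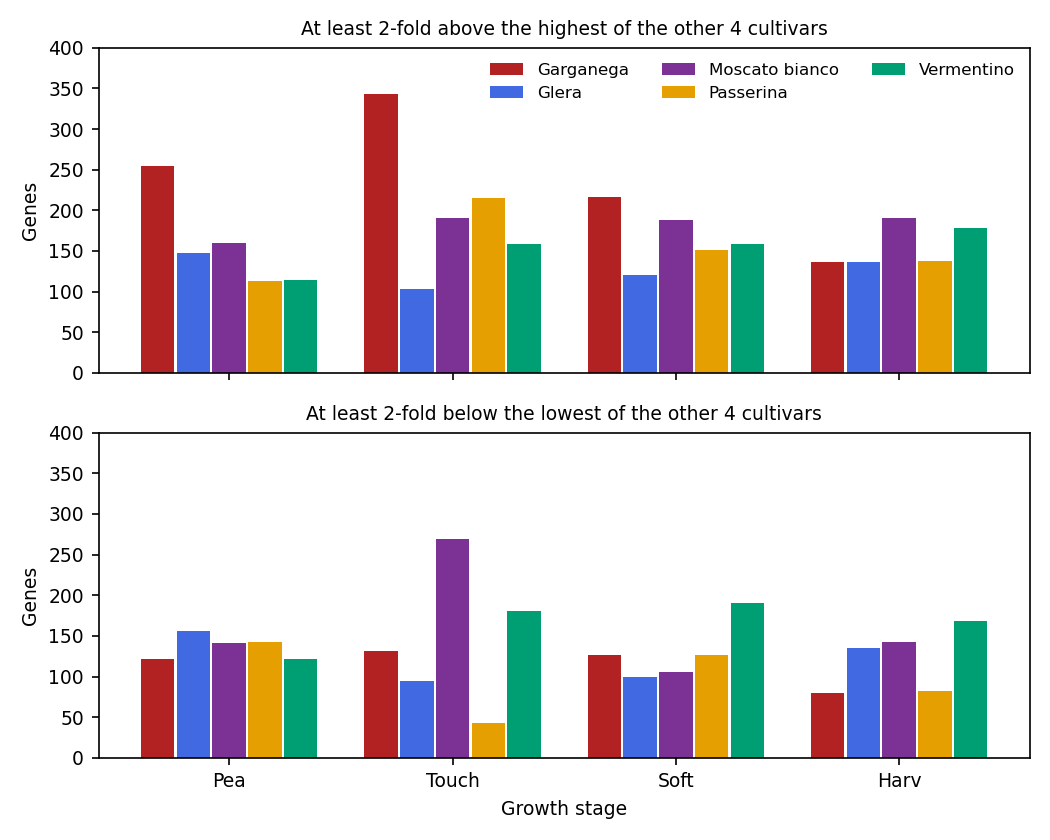
Number of genes (vertical axes) in which each cultivar lay outside the range of its own other 4 by 2-fold or more, above or below, by stage (horizontal axis). Garganega has 343 such high genes at Touch, against 103 to 215 in the others, and 80 low genes at Harv, against 82 to 168.

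Genes that the others were turning off or on were more frequent among those outside the range than among all genes. Of the 343 genes high in Garganega at Touch, 92 (26.8%) were genes that fell at least 2-fold from Pea to Soft in all of the others, against 12.5% of all genes. Of the 131 genes low at Touch, 22 (16.8%) rose from Pea to Soft in the others, against 2.87% of all genes. At Soft, 73 of the 217 high genes (33.6%) fell from Touch to Harv in the others, against 13.7% of all genes, and 32 of the 127 low genes (25.2%) rose, against 2.61%. Most high and low genes thus did not belong to these sets. In the opposite direction the shares were below those of all genes, with 8 of the 343 high genes at Touch rising (2.33%, against 2.87%) and 11 of the 131 low genes falling (8.40%, against 12.5%). Garganega was not alone in this, since in Vermentino at Soft 27.0% of 159 high genes were falling and 19.9% of 191 low genes were rising in its other 4, against 13.5% and 2.58% of all genes. The reverse was found in Moscato bianco at Touch, where 43.1% of 269 low genes were falling and 28.3% of 191 high genes were rising in its other 4.

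Most of these differences passed the 2-fold margin at 1 stage only. Of 20833 genes, 727 were at least 2-fold above the others at some stage, 554 of them at 1 stage, 137 at 2, 22 at 3 and 14 at all 4. For low genes the numbers were 325 in all, with 239 at 1 stage, 54 at 2, 16 at 3 and 16 at all 4. The shares at 1 stage, 76.2% and 73.5%, were within those of the other cultivars (68.7% to 81.5% for high and 68.7% to 76.0% for low genes). By any margin, Garganega was above the others at all 4 stages in 636 genes and below them in 581. In the other cultivars these numbers were 529 to 691 and 387 to 949. The most frequent courses were high at Touch alone (192 genes), at Soft alone (153), at Pea alone (118), at Pea and Touch (97) and at Harv alone (91). In 19 genes Garganega was high at 1 stage and low at another.

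Of the genes outside at some stages and not at all 4, those with the widest margins above the others at Soft were high at 3 stages. VIT_08s0007g07690 stood at 71.3, 388, 2325 and 679 FPKM in Garganega at Pea, Touch, Soft and Harv. At Soft the others held 78.8 FPKM in Moscato bianco, 110.4 FPKM in Glera, 221 FPKM in Passerina and 230.3 FPKM in Vermentino, and at Harv they held 15.1 to 69.6 FPKM. Garganega was above the highest of them at every stage, though at Pea (36.8 FPKM in Vermentino) by less than 2-fold. VIT_14s0006g02550 stood at 31.0, 68.8, 27.8 and 0.662 FPKM in Garganega at the 4 stages, against at most 14.0, 21.7, 3.65 and 0.292 FPKM in the others, and so was also above them throughout, though at Harv by less than 2-fold on the scale of log2(FPKM + 1).

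Low genes included VIT_15s0046g01560, which stood at 8.73, 24.1, 7.08 and 0.876 FPKM in Garganega. The others held 183 to 437 FPKM at Pea, 335 to 1538 FPKM at Touch, 14.9 to 211 FPKM at Soft and, at Harv, 5.40 to 84.5 FPKM. All 5 cultivars had their highest value at Touch, and Garganega was below the lowest of the others at each stage. VIT_13s0019g03160 stood at 2.95 FPKM in Garganega at Pea, against 52.5 to 138 FPKM, while at Soft, 6.0 FPKM lay within the 3.23 to 22.0 FPKM of the others. The joined entry VIT_18s0001g12690,VIT_18s0001g12700 was low at Harv, at 1.70 FPKM in Garganega against 48.2 to 72.9 FPKM, although at Pea its 57.7 FPKM was the highest of the 5 cultivars, ahead of 55.1 FPKM in Vermentino.

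The widest margins above the others at Pea, Touch and Harv were in genes listed at 0 elsewhere. VIT_18s0001g01150 stood at 10.5 FPKM in Garganega at Pea and was listed at 0 in its other 3 columns and in all 16 columns of the others. VIT_17s0000g02380 in Garganega stood at 10.1 FPKM at Pea and at 30.1 FPKM at Harv, and was listed at 0 in the other 18 columns. VIT_00s0854g00050 stood at 30.9 FPKM in Garganega at Touch, where the others were listed at 0, but at Harv it stood at 13.2 FPKM, against 15.6 FPKM in Passerina and 84.5 FPKM in Vermentino. Such values that come and go between columns are reported as listed, and no fold is given for them.

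A test of 1 Garganega column against the 4 others of a stage rested on such genes. With limma, 16 genes were called at Pea (0.0768%), 37 at Touch (0.178%), 18 at Soft (0.0864%) and 16 at Harv (0.0768%). They were higher in Garganega in 14, 35, 18 and 15 cases. All 4 other columns were listed at 0 in 5, 13, 11 and 8 of them. Without genes listed at 0 in any column, limma called 0 at every stage. A test of 1 column against 4 cannot show that no gene differed. Over all genes kept, Moscato bianco at Pea and Passerina at Touch had more calls than Garganega when tested in its place. At Soft and at Harv, all 4 other cultivars had more. With any 1 other cultivar left out, 0 were called at Pea and Touch and at most 1 at Soft, while at Harv the count ran up to 34.

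A small set of genes was apart at all 4 stages. In 14 genes Garganega was at least 2-fold above the highest of the others at every stage (0.0672% of genes tested) and in 16 at least 2-fold below the lowest (0.0768%). The other cultivars had 12 to 23 high and 9 to 30 low genes by the same rule, so Garganega was within their ranges. Fewer columns make the rule easier to meet, and the high genes numbered 45 without Passerina, 26 without Moscato bianco, 22 without Vermentino and 26 without Harv. The low genes numbered 32 without Vermentino and 30 without Passerina. In 6 of the 14 high genes the others were under 1 FPKM in every column, and in 7 of the 16 low genes Garganega was. High genes stood at 1.28 to 61.8 FPKM in Garganega, and low genes at 0 to 20.5 FPKM, against 1.90 to 164 FPKM in the others.

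Among the high genes, the joined entry VIT_13s0175g00030,VIT_13s0175g00040 stood at 22.7, 22.2, 9.68 and 13.9 FPKM in Garganega at Pea, Touch, Soft and Harv. In the others it ran from 0.159 FPKM in Moscato bianco at Soft to 1.12 FPKM in Passerina at Pea, so no column of theirs came near Garganega. VIT_07s0005g06480 stood at 10.1, 12.1, 11.5 and 16.9 FPKM in Garganega, against 1.91 to 2.91, 1.79 to 2.85, 1.76 to 2.65 and 3.05 to 5.82 FPKM in the others. This gene was highest at Harv in all 5 cultivars.

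Among the low genes, VIT_17s0000g02880 stood at 0.382, 0.379, 0.103 and 0.0804 FPKM in Garganega. The others held 4.69 to 6.95 FPKM at Pea, 6.05 to 11 FPKM at Touch, 10.6 to 21.4 FPKM at Soft and, at Harv, 9.16 to 13.7 FPKM. Each of the others was higher at Soft than at Pea, whereas Garganega was lower. VIT_15s0048g01000 stood at 4.77, 0.876, 0.300 and 0.173 FPKM in Garganega, against 14.2 to 64.4, 24.7 to 72.9, 14.2 to 42.1 and 5.97 to 17.9 FPKM. In each of the others it was higher at Touch than at Pea, whereas in Garganega it was lower. Of all 20833 genes kept, 10 were listed at 0 in all 4 Garganega columns and above 0 in all 16 others. Some of them may be among the low genes above. By a stricter limit, 0 genes reached 1 FPKM in all 4 Garganega columns with all 16 others listed at 0. As the limits differ, the counts cannot be compared.

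The identifiers of these 30 genes were counted by their first letters and digits. Those of 5 of the 16 low genes (31.2%) begin with VIT_00s, as do 8.03% of all genes kept, and 1 of the 14 high genes does. The stem VIT_13s0019 was shared by 4 of the 30, against 1.80% of all genes kept. The stems were not chosen by a rule set beforehand. These shares are counts of small sets and were not tested.

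Differences that held evenly over the stages were tested with limma on the 4 differences between Garganega and the mean of the others. Of 20833 genes, 518 were called (2.49%), 299 higher in Garganega (1.44%) and 219 lower (1.05%), with median differences of 1.30 and -1.36. The same test with each other cultivar in its place called 227 to 254 higher and 138 to 348 lower, so Garganega had the most higher genes of the 5. With equal medians, 280 were called higher and 238 lower in Garganega. The other cultivars were not tested under that scaling. All 14 high and 16 low genes of the preceding set were among the calls, which adds no support, since both rest on the same columns. Above the highest other cultivar at all 4 stages, by any margin, were 141 of the 299, and below the lowest were 108 of the 219. In the remaining calls, at least 1 other cultivar was as high or as low as Garganega at some stage.

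The p-values of this test measure how even a difference was over the stages, which share a cultivar, a vineyard and a season. They hold no error between libraries or plants. With cultivar as the replicate, on means over the stages, limma called 0 genes. That fit holds 1 Garganega value per gene, so it does not show that no gene differed. With 1 stage left out, 311 genes were called without Harv, 208 without Soft, 155 without Pea and 105 without Touch.

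The largest called differences were of both kinds. The joined entry VIT_19s0014g05360,VIT_19s0014g05370 stood at 122, 161, 78.7 and 97.8 FPKM in Garganega, against 112, 140.2, 102 and 89.9 FPKM in Vermentino. In Glera it reached at most 0.690 FPKM, in Moscato bianco at most 0.468 FPKM, and in Passerina 31.6 FPKM at Touch. Its difference from the mean of the others was 4.61 (SE 0.16, adjusted p = 0.0032 by limma), and it was positive at 4 of 4 stages. Garganega and Vermentino were thus alike in this gene and apart from the remaining cultivars. VIT_19s0014g05380, the next identifier, had the same distribution, with 72.6, 93.7, 48.9 and 54.3 FPKM in Garganega and 70.9, 91.8, 62.4 and 50.9 FPKM in Vermentino (difference 3.98, SE 0.11, adjusted p = 0.00158 by limma). Fragments of near-identical copies can be split between such neighbours, so they may not be independent.

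On the low side were 2 genes already described. VIT_15s0046g01560 had a difference of -4.40 (SE 0.36, adjusted p = 0.0075 by limma) and was below all other cultivars at 4 of 4 stages. VIT_19s0093g00190 had a difference of -3.75 (SE 0.43, adjusted p = 0.0142 by limma). It was below all others from Touch onwards, while at Pea Vermentino was slightly lower. The call of VIT_15s0046g01560 was lost without Touch (adjusted p = 0.0525), and that of VIT_19s0093g00190 without Pea, Touch or Soft (adjusted p = 0.0523, 0.077 and 0.0696). With the variance trend on the mean difference, limma called none of the 4 entries (adjusted p = 0.53 and 0.3 for the high pair, in the order given, and 0.952 and 0.795 for VIT_15s0046g01560 and VIT_19s0093g00190). That trend was fitted first and was replaced after its results were seen.

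The most abundant genes held a large share of the summed FPKM in Garganega. Its 100 most abundant genes held 18.4% at Pea, 29.0% at Touch, 42.8% at Soft and 48.6% at Harv, against at least 18.8%, 20.6% to 29.7%, 32.0% to 46.1% and 39.4% to 45.3% in the others. Garganega was thus lowest at Pea and highest at Harv. The gene with the highest FPKM in Garganega at Pea, Touch and Soft was VIT_19s0014g02740, which held 10.4% of the sum at Touch and 13.6% at Soft. It stood at 6722, 92997, 139535 and 62953 FPKM in Garganega at Pea, Touch, Soft and Harv. Glera held 5510, 105692, 138458 and 57472 FPKM, close to Garganega. At Touch, Vermentino held 43175 FPKM, while Moscato bianco and Passerina had it listed at 0. At Soft, Moscato bianco held 116733 FPKM, and the gene was listed at 0 in Passerina and Vermentino. A 0 can be a failed estimate, and these columns have the lower shares at Touch and Soft. Its part in those shares was not tested. The most abundant entry at Harv was the joined VIT_08s0056g01600,VIT_08s0056g01610, at 133695 FPKM in Garganega, or 12.6% of its summed FPKM. The others held 30990.4 FPKM in Glera, 42551 FPKM in Vermentino, 43041 FPKM in Moscato bianco and 75396 FPKM in Passerina at Harv. At Pea, Touch and Soft, Garganega stood at 2882, 3168 and 46780.3 FPKM, below Passerina at 3597, 4263 and 50384 FPKM and above the remaining cultivars. Its difference over the stages was 1.0 (SE 0.21, adjusted p = 0.0545 by limma) and did not pass.

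Other abundant genes ranged from similar to very uneven. VIT_05s0020g01170 stood at 9502 FPKM in Garganega at Touch, against 8948 to 10392 FPKM, and was within the range of the others at all 4 stages. VIT_18s0072g00380 stood at 16523 FPKM in Garganega at Soft, against 10493 to 14012 FPKM, and at Harv at 12055 FPKM, against 6438 to 14017 FPKM. VIT_19s0090g01340 reached 27804 FPKM in Garganega at Harv, against 7435 FPKM in Moscato bianco and 7145 FPKM in Vermentino. In Glera and Passerina it was then listed at 0. At Soft, those 2 cultivars held 20545 FPKM and 29781 FPKM, against 3717 FPKM in Garganega.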

How the data were processed

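Berry pericarp RNA of 5 cultivars at 4 stages was sequenced, with 60 libraries in all. The values are FPKM, which the authors deposited as 1 table with 20 columns, each the authors' mean for a cultivar and stage, per the file headers. The tools named are TopHat2 2.0.6 and Cufflinks 2.0.2, per the submitters' processing notes. For the genome build and the annotation, the entry is: not given in the sources used here. Every column matched its cultivar and stage by name and 0 were left over. Depth is unknown, so no counting interval can be given.

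Genes reaching 1 FPKM in some column were kept (20833 of 29287), as log2(FPKM + 1). A 0 can be a failed estimate, and 2233 kept genes hold at least 1. The table joins several identifiers in 608 entries. Because strand was not marked, fragments of overlapping genes cannot be separated, and fragments of near-identical copies can be shared.

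Tests used limma 3.58.1 in R 4.3.3, with Benjamini-Hochberg adjustment over all genes and a call at an adjusted p under 0.05 and a difference of at least 2-fold. The prior variance followed the mean level of the columns. This choice was made after a first run with limma's default for differences, a trend on the mean difference. That run gave standard errors judged implausible for large differences, and it is kept as an alternative. In the comparison of 1 column with 4, Garganega was assumed to vary like the others, with 3 residual degrees of freedom. Positions, counts outside the range and lag counts were computed in Python 3.11.15, and the procedures were tested on simulated data. The alternatives changed the pseudocount, filter, scaling, margin, variance trend, reference and cultivars or stages entered.

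Named genes are those averaging 10 FPKM or more on the higher side and the widest margin or difference, and the most abundant of each stage. Without gene names, at most 2 identifiers each way are printed for a comparison. The members, lists and tests were chosen with earlier results of these data known. Gene lists and markers that depend on names were not used.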

Additional observations from a re-analysis of the deposited data

Results flagged for a closer look

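Changes between stages that differed between Garganega and the other cultivars by limma were found in 9 genes between Pea and Touch, 7 between Touch and Soft, and 18 between Soft and Harv. All of these genes were listed at 0 in at least 1 column. In each transition, at least 1 other cultivar tested in Garganega's place had as many calls or more. The shares of genes tested are given with the transitions above.

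Across the cultivars, the number of genes at least 2-fold above the others at all 4 stages was 23 in Glera, against 12 to 15 in the others, Garganega among them with 14. It was picked out because Glera lies far from the rest. In all, 26 sets of 5 cultivars were searched in this way and 1 stood out, where chance alone gives about 1 in 20, or 1.3. Garganega was never the value that stood out.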

How the results depend on the processing

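Garganega was the lowest of the cultivars in position in 13 of 13 alternatives at Touch and at Soft, though its value itself went to 72.9% and 87.7% on the lines between adjacent stages. Its share of genes behind was the largest in 12 of 12 alternatives for rising and falling genes at Touch and for falling genes at Soft, and in 6 of 12 for rising genes at Soft. For rising genes at Touch that share was 42.9% with a 1.5-fold rule. With 1 cultivar left out, it was 48.7% to 62.9% for rising and 51.8% to 64.0% for falling genes at Touch.

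Calls of the paired test (518) numbered 1202 with a pseudocount of 0.1, 124 with 5 and 0 with cultivar means, and 105 to 576 with 1 cultivar or stage left out. No call of the 518 turned its direction, and 487 were kept with equal medians and 476 with quantile normalization. A variance trend on the mean difference, which was fitted first and replaced after its results were seen, called 413.

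With a pseudocount of 0.1, limma called 8 genes at Pea, 18 at Touch, 0 from Pea to Touch and 2 from Touch to Soft. With 5 it called 28 at Pea, 8 at Soft, 8 at Harv, 15 from Touch to Soft and 11 in the last transition. Without the filter it called 55 at Pea, 66 at Touch, 18 from Pea to Touch and 34 from Touch to Soft. With a filter of 5 FPKM it called 5, 15, 3 and 7 at the 4 stages and 2, 0 and 5 in the transitions. Without genes listed at 0 it called 0 throughout. Without a trend it called 9, 19, 0 and 3 at the stages and 4 in each of the later transitions, and with quantile normalization 4 from Touch to Soft. With 1 cultivar left out it called 0 at Pea and Touch, 0 to 1 at Soft, 0 to 34 at Harv, 0 in the first 2 transitions and 4 to 10 in the last.

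Genes apart at all 4 stages numbered 34 high and 51 low with a pseudocount of 0.1, 1 and 1 with 5, 45 and 39 with a 1.5-fold margin, and 9 high without genes listed at 0. With 1 cultivar or stage left out they numbered 17 to 45 high and 17 to 32 low. Genes outside at Pea, Touch, Soft and Harv numbered 741, 898, 726 and 529 with a pseudocount of 0.1, 129, 165, 169 and 81 with 5, and 1024, 1278, 1053 and 657 with a 1.5-fold margin. Without genes listed at 0 they numbered 225 at Pea, and with 1 cultivar left out 481 to 595, 611 to 795, 456 to 628 and 301 to 587.

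No result reversed in any alternative, 154 summary values kept within their limits and 106 moved, and the cause was not tested. No paired analysis was possible because the columns are means and carry no replicate numbers. This concerns pairing of libraries, since stages were paired in the test that called 518. Depth is unknown, so what it limits could not be given.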
